A study of Mus musculus with 12 samples.

Results

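The integrated stress response and the unfolded protein response are represented here by 43 genes, chosen by symbol from the 46078 genes listed, and 42 of the 43 were measured well enough to test. The rule is a list of symbols grouped by known role and uses no measured value, though the list was drawn up with earlier results of these data known. Cells were BV2, an immortalised mouse microglial line, either wild type (WT) or with a knockout (KO) of Atg5, a gene needed to form autophagosomes. Both genotypes were kept in medium alone or were given interferon gamma (IFNγ) at 1 U/mL for 24 h, which gives the groups WT medium, WT IFNγ, KO medium and KO IFNγ with 3 libraries each. The libraries of a group carry the letters A, B and C. Library construction captured 3′ ends of poly-A RNA from the cytosol. Nuclear transcripts were thus not the target, and how much nuclear RNA remained was not checked. The labels do not say how many KO clones were used. GEO's design text speaks of biological replicates pooled in a single library, while the labels' protocols say that each replicate was generated independently. If the letters mark pools or preparations from 1 culture, the p-values measure only the spread between such libraries.

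Both responses adjust protein synthesis to stress. In the integrated stress response, kinases that sense haem shortage, amino acid shortage, double-stranded RNA or misfolded protein in the endoplasmic reticulum (ER) phosphorylate the initiation factor eIF2. General translation then slows while the mRNA of Atf4 is translated better, and ATF4 switches on genes for amino acid supply, redox balance and, under lasting stress, cell death through CHOP, the product of Ddit3. In the unfolded protein response the ER sensors PERK (Eif2ak3), IRE1 (Ern1) and ATF6 also raise chaperones, folding enzymes and the machinery that removes misfolded protein from the ER. Transcript levels show the output of these pathways and not the phosphorylation or splicing steps that start them.

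Short promoter elements known from these branches were searched in the genes' promoters, and stretches that hold them are shown because the results below are read against them. RefSeq promoter windows of build GRCm38.p6, each of 300 bases with 250 before the start site and 50 after it, were found for 39 of the 43 genes and gave 43 windows. Atf6, Hyou1, Manf and Slc7a5 were not matched. The core of the C/EBP-ATF response element, to which ATF4 and C/EBP proteins bind as pairs, was searched as TGATGNAA on both strands and stood in windows of 7 genes and in 3.97% of all 32851 windows. Capitals mark that core, on either strand, in the stretches of Trib3, Atf3, Nupr1, Chac1 and Asns, which are printed 5′ to 3′ on the strand of the gene. The capitals in Trib3 lie 15 to 22 bases from the start site, on the transcribed side, and the others lie before their start sites.

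Trib3 (chr2:152344031-152344054, minus strand): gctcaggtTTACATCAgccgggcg
Atf3 (chr1:191183416-191183463, minus strand): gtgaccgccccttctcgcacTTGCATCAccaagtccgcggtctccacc
Nupr1 (chr7:126625553-126625600, minus strand): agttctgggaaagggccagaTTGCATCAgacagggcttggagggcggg
Chac1 (chr2:119351029-119351076, plus strand): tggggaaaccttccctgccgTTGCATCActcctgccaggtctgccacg
Asns (chr6:7693210-7693252, minus strand): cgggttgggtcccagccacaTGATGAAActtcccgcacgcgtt

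The ER stress response element, at which ATF6 and XBP1 act together with NF-Y, was searched as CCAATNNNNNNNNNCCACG on both strands. It stood in windows of 8 genes, which are Hspa5, Hsp90b1, Calr, Canx, Pdia6, Creld2, Dnajc3 and Syvn1, and in 0.119% of all windows. The related ERSE-II, searched on both strands as ATTGG, any 1 base and CCACG, was found in the window of Herpud1 and in 0.0365% of all windows, and the Herpud1 window also holds the C/EBP-ATF core. Capitals mark the ER stress elements in the stretches below, and both elements in that of Herpud1.

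Hspa5 (chr2:34772005-34772063, plus strand): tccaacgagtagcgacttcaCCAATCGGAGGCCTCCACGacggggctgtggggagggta
Creld2 (chr15:88819500-88819558, plus strand): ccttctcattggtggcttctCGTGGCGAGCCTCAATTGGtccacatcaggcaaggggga
Calr (chr8:84847055-84847113, minus strand): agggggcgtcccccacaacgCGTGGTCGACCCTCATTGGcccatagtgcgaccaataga
Hsp90b1 (chr10:86705513-86705676, minus strand): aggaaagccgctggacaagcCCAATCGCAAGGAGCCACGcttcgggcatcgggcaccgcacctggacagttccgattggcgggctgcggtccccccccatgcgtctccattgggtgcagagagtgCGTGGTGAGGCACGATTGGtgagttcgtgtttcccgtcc
Herpud1 (chr8:94386297-94386407, plus strand): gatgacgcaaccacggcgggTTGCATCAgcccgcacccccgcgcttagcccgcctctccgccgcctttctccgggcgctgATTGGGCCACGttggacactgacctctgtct

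An element for interferon regulatory factors, searched as GAAANNGAAA, was found in windows of Ppp1r15a and Vldlr and in 3.44% of all windows. The letters TGACGTGG, the core of an element bound by XBP1 and ATF6, were in no window of the 39 genes that had one. They were in 0.676% of all windows. Atf6, Hyou1, Manf and Slc7a5 could not be searched. These are matches of letters and not measured binding, and bases outside the windows were not searched.

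All values below are deposited log2 values of the normalised count with 1 added. Where groups are said not to overlap, the share of all tested genes that do so was not counted. Such statements describe the values only. The 12 libraries hold 3329849 to 7330435 reads each. The first principal component, with 40.35% of the variance, separated IFNγ from medium, and placed WT IFNγ C (22.16) and KO IFNγ C (29.08) closer to the medium libraries (-45.94 to -33.49) than the other IFNγ libraries (41.19 to 56.33). Calls that change without both are given beside the genes. All 12 microglial and macrophage markers passed the filter on low values. Of these, Tmem119, P2ry12 and Cx3cr1 had few reads, with 0 to 15, 1 to 25 and 5 to 32 a library. Of 32 markers of other cell types, 18 had no read and 5 passed. The summed normalised counts of those 32 were 425.9 to 677.9 in WT medium and 627.8 to 1036.9 in WT IFNγ. They were 243.2 to 259.1 in KO medium and 374.7 to 541.9 in KO IFNγ. Most reads behind these sums came from 1 gene, Kdr, listed as an endothelial marker. Kdr had 324 to 792 reads a library in WT medium and 400 to 819 in WT IFNγ. It had 87 to 220 in KO medium and 344 to 425 in KO IFNγ. The part of these markers in the results was not tested. The Atg5 transcript stood at 8.48 ± 0.11 in WT medium, 8.91 ± 0.05 in WT IFNγ, 8.85 ± 0.17 in KO medium and 8.78 ± 0.04 in KO IFNγ (SD, n = 3 each), which is no check of the genotype, since a 3′ read does not cover a deletion elsewhere in the gene. In bulk RNA, fewer cells that express a gene and less RNA per cell cannot be told apart.

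The first comparison asks how IFNγ changed the stress response genes in WT cells. IFNγ raised 7 of the 42 tested genes in WT cells and lowered none. They were Trib3, Ddit3, Atf5, Sdf2l1, Creld2, Cebpg and Mthfd2, with log2 changes from 0.62 to 2.53. The test was limma's moderated test at a Benjamini-Hochberg adjusted p under 0.05 over 10981 genes, and it called 4.53% of all genes higher and 2.12% lower. At an unadjusted p under 0.05 there were 15 of the 42 (35.7%), against 19.9% of all tested genes. The median change of the 42 was 0.33, against -0.02 for all tested genes, and 35 of the 42 had a change above 0. In KO cells, IFNγ raised 5 of the 42 and lowered none, against 4.67% of all genes higher and 2.69% lower. They were Trib3, Ddit3, Creld2, Cebpg and Atf3, with log2 changes from 0.90 to 2.01, and 14 of the 42 (33.3%) had an unadjusted p under 0.05, against 19.3% of all tested genes. The median change of the 42 in KO cells was 0.36, against 0.01 for all tested genes, and again 35 of the 42 had a change above 0. Trib3, Ddit3, Cebpg and Creld2 passed in both genotypes, and 32 of the 42 (76.2%) had a higher mean with IFNγ in both, against 31.3% of all tested genes. The counts depend on single libraries: leaving out 1 library at a time gave 2 to 9 genes in WT cells and 1 to 7 in KO cells.

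**Figure D1:**
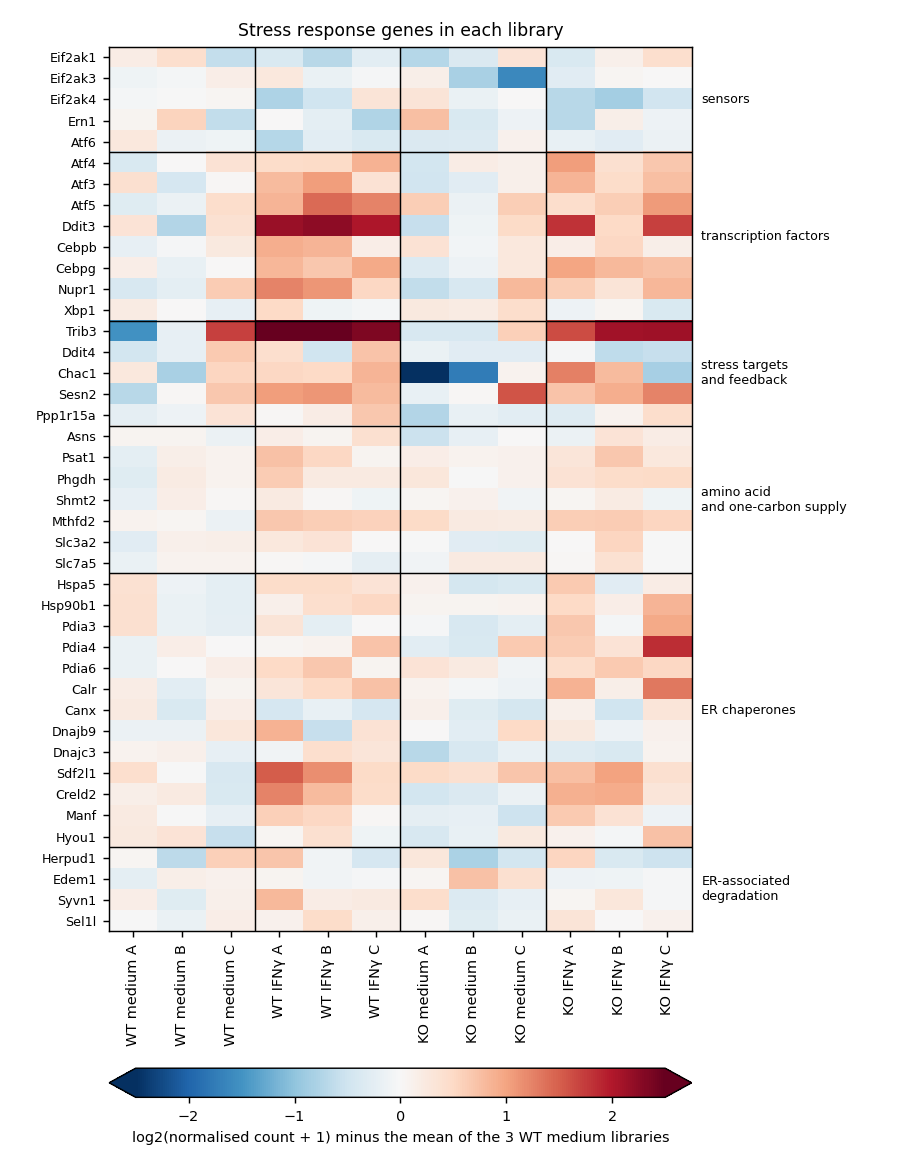
Heat map of the 42 tested genes (rows, by role) in the 12 libraries (columns), with colour for log2(normalised count + 1) minus the mean of the 3 WT medium libraries. Trib3 and Ddit3 form the darkest red rows in the IFNγ libraries, while the 5 sensor genes at the top stay pale or blue in most of them.

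Trib3 encodes a pseudokinase that is induced by ATF4 and CHOP and holds back AKT and ATF4 itself (chr2:152337422-152344032, minus strand). In WT medium it stood at 4.70, 6.0 and 7.92 in libraries A, B and C, and in WT IFNγ at 8.71, 8.96 and 8.54. KO medium had 5.81, 5.81 and 6.80, and KO IFNγ 7.84, 8.30 and 8.32. Every IFNγ library was above every medium library of its genotype, and library C was the highest of the medium libraries in both genotypes. The change was 2.53 (SE 0.50, limma adjusted p = 0.00293) in WT cells, a 5.77-fold rise on this log2 scale, and 2.01 (SE 0.50, adjusted p = 0.0158) in KO cells. The WT call held under every alternative run, while the KO call was lost without KO medium A or B or KO IFNγ B or C, with changes of 1.85 to 1.94, without both IFNγ libraries of letter C (1.93, adjusted p = 0.0631) and without the mean-variance trend (adjusted p = 0.096).

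Ddit3 encodes CHOP, a transcription factor of lasting ER and amino acid stress (chr10:127290774-127296288, plus strand). In WT medium it stood at 6.19, 5.11 and 6.22 and in WT IFNγ at 7.99, 8.07 and 7.86. KO medium had 5.26, 5.73 and 6.31, and KO IFNγ 7.65, 6.34 and 7.55. The WT groups lay far apart, whereas KO IFNγ B lay just above the highest KO medium library. The change was 2.14 (SE 0.36, limma adjusted p = 0.000658) in WT cells, a 4.40-fold rise, and 1.41 (SE 0.36, adjusted p = 0.0198) in KO cells. The WT call held under every alternative run. The KO call was lost without KO medium A or B or KO IFNγ A or C, with changes of 1.16 to 1.39, without both IFNγ libraries of letter C (1.23, adjusted p = 0.102), without the mean-variance trend (adjusted p = 0.0748) and with the 2 groups fitted alone (adjusted p = 0.0811). The last 68 bases of Ddit3 (chr10:127296221-127296288) overlap the 3′ end of Mars, the methionyl-tRNA synthetase, on the opposite strand. Mars fell by 0.90 in WT cells (SE 0.24, limma adjusted p = 0.0295) and was at -0.36 in KO cells. Whether the counting used strand is not given in the sources used here, so reads in the shared bases cannot be told apart.

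Cebpg encodes C/EBPγ, a partner with which ATF4 binds its target genes (chr7:35046422-35056573, minus strand). It stood at 8.72, 8.36 and 8.56 in WT medium and at 9.37, 9.22 and 9.49 in WT IFNγ. KO medium had 8.20, 8.42 and 8.81, and KO IFNγ 9.54, 9.36 and 9.28. The treated and untreated libraries did not overlap in either genotype. The change was 0.82 (SE 0.19, limma adjusted p = 0.0114) in WT cells and 0.92 (SE 0.19, adjusted p = 0.00423) in KO cells. The KO call held under every alternative run, and the WT call was lost only without WT medium B (0.72, adjusted p = 0.0742).

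**Figure D2:**
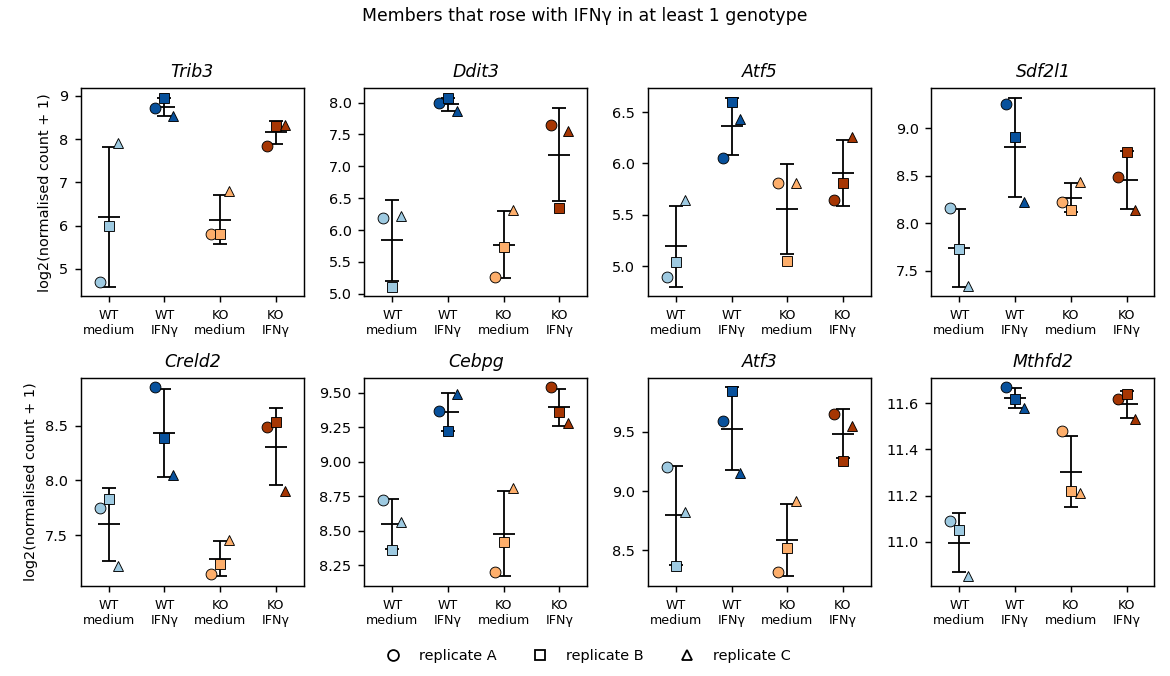
Values of the 8 genes that rose with IFNγ in at least 1 genotype, as log2(normalised count + 1) in each library; symbols give the letter, bars the mean and SD of 3 libraries, and each panel has its own axis, which does not start at 0. In Trib3, Ddit3, Creld2 and Cebpg the IFNγ libraries of each genotype lie above all medium libraries of that genotype, and Trib3 C is high in medium.

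Atf5, an ATF4 target linked to mitochondrial protein stress (chr7:44812256-44816658, minus strand), stood at 4.90, 5.04 and 5.64 in WT medium and at 6.05, 6.60 and 6.43 in WT IFNγ. The KO libraries stood at 5.81, 5.05 and 5.81 in medium and at 5.64, 5.81 and 6.26 with IFNγ. The WT groups did not overlap and the KO groups did. The WT change was 1.17 (SE 0.33, limma adjusted p = 0.0345) and was lost, at 1.02 to 1.32, without WT medium A or B or any 1 WT IFNγ library, without both IFNγ libraries of letter C (adjusted p = 0.0637) and with no filter on low values (adjusted p = 0.0742). The KO change was 0.34 (SE 0.33, adjusted p = 0.631). Atf5 overlaps Nup62 by 571 bases on the opposite strand, and Nup62 was not analysed here.

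Atf3, a stress-induced factor that also restrains inflammatory genes in macrophages (chr1:191170296-191218039, minus strand), stood at 8.32, 8.52 and 8.92 in KO medium and at 9.65, 9.25 and 9.55 in KO IFNγ. In WT cells it stood at 9.20, 8.37 and 8.82 in medium and at 9.59, 9.84 and 9.15 with IFNγ. The KO groups were apart, while WT IFNγ C lay just under WT medium A. The change was 0.90 (SE 0.23, limma adjusted p = 0.0219) in KO cells and 0.73 (SE 0.23, adjusted p = 0.0711) in WT cells. Without both IFNγ libraries of letter C the WT value was 0.92 (adjusted p = 0.0267). The KO call was lost without KO medium A or B or KO IFNγ A or C, at 0.76 to 0.86, and without the mean-variance trend (adjusted p = 0.0824).

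Atf4 itself, whose product is set mainly by translation, stood at 11.56, 11.94 and 12.30 in WT medium and at 12.39, 12.42 and 12.80 in WT IFNγ. In KO cells it stood at 11.48, 12.12 and 12.06 in medium and at 12.97, 12.33 and 12.60 with IFNγ. The groups did not overlap in either genotype, but neither change passed the test (0.60, SE 0.23, limma adjusted p = 0.132 in WT cells, and 0.75, SE 0.23, adjusted p = 0.0529 in KO cells). The KO change of Atf4 passed with voom weights (limma adjusted p = 0.0476), with 5 added to the count (0.0496) and with a filter at log2 of at least 5 (0.0475). It also passed with the letter fitted as a block (0.0396) and without KO IFNγ B (0.0396). Under the other settings the change of Atf4 did not pass. Nupr1, a small chromatin protein of the stress response, changed by 0.95 in WT cells (adjusted p = 0.109) and by 0.65 in KO cells (adjusted p = 0.313). Cebpb, a C/EBP factor of stress and inflammation, had values of 0.64 in WT cells (adjusted p = 0.0817) and 0.09 in KO cells (adjusted p = 0.875). Without both IFNγ libraries of letter C, Cebpb passed in WT cells (0.87, adjusted p = 0.0106). Cebpb overlaps Tmem189, whose highest value was 9.94, by 908 bases on the opposite strand. Since the use of strand in counting is not given, reads in the shared bases cannot be told apart. Xbp1, whose mRNA is spliced by IRE1, had values of 0.11 and -0.45, and the spliced form was not measured. Over the 8 transcription factors the median change was 0.77 in WT cells, with 3 called and 8 above 0, and 0.70 in KO cells, with 3 called and 7 above 0.

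The 5 sensors showed no call in either direction. They are the eIF2 kinases Eif2ak1, which responds to haem and mitochondrial stress, Eif2ak3 (PERK) and Eif2ak4 (GCN2, the amino acid sensor), and the ER sensors Ern1 and Atf6. Their median change was -0.33 in WT cells, with 1 of 5 above 0, and the values ran from -0.45 for Atf6 to 0.03 for Eif2ak3. In KO cells they ran from -0.72 for Eif2ak4 to 0.68 for Eif2ak3. The 3′ end of Eif2ak1 overlaps Aimp2, whose highest value was 7.95, by 1548 bases on the opposite strand. Reads in those shared bases cannot be told apart, since the use of strand in counting is not given. Eif2ak4 stood at 8.39, 7.89 and 8.07 in KO medium and at 7.37, 7.22 and 7.58 in KO IFNγ, so that these groups did not overlap. Its KO change did not pass the test (SE 0.25, limma adjusted p = 0.0867), and without both IFNγ libraries of letter C it was -0.82 (adjusted p = 0.0306). In WT cells Eif2ak4 stood at 8.02, 8.05 and 8.12 in medium and at 7.30, 7.56 and 8.38 with IFNγ, where library C was the highest of the WT libraries. The fourth eIF2 kinase, Eif2ak2 (PKR, the sensor of double-stranded RNA and an interferon-induced gene), is not among the 43 and rose in both genotypes, by 1.15 (SE 0.28, adjusted p = 0.0154) in WT cells and 1.24 (SE 0.28, adjusted p = 0.00871) in KO cells.

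Of the stress targets and feedback genes, only Trib3 passed. Sesn2, an ATF4 and p53 target that restrains mTORC1, stood at 5.93, 6.65 and 7.29 in WT medium and at 7.66, 7.73 and 7.41 in WT IFNγ. The KO libraries gave 6.44, 6.66 and 8.19 in medium and 7.34, 7.53 and 7.86 with IFNγ. KO medium C was the highest of the KO libraries, above those with IFNγ, while the WT groups did not overlap. The change was 0.98 (SE 0.38, limma adjusted p = 0.138) in WT cells and 0.48 (SE 0.38, adjusted p = 0.543) in KO cells. Chac1, which breaks down glutathione, had 0 to 11 reads a library, with 8, 3 and 8 in WT medium, 6, 7 and 8 in WT IFNγ, 0, 1 and 5 in KO medium and 11, 10 and 3 in KO IFNγ, and no change was detectable at this depth. Ppp1r15a (GADD34, which brings the phosphatase back to eIF2) had changes of 0.29 and 0.47, and Ddit4, an inhibitor of mTORC1, of 0.20 and -0.17, in WT and KO cells. Vldlr, a lipoprotein receptor known as an ATF4 target, had 0 of 66034587 reads, which allows up to 3 reads in all libraries together for counting error alone, and was the gene not tested. Copies made by PCR are not independent molecules.

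Among the 7 genes of amino acid and one-carbon supply, Mthfd2 alone rose, and in WT cells. It encodes a mitochondrial folate enzyme (chr6:83305691-83325908, minus strand) and stood at 11.09, 11.05 and 10.85 in WT medium and at 11.67, 11.62 and 11.58 in WT IFNγ. In KO cells it stood at 11.48, 11.22 and 11.21 in medium and at 11.62, 11.64 and 11.53 with IFNγ. The groups did not overlap in either genotype, and KO medium lay above WT medium. The change was 0.62 (SE 0.16, limma adjusted p = 0.0201) in WT cells and 0.29 (SE 0.16, adjusted p = 0.34) in KO cells. The WT call was lost, at 0.55 to 0.65, without WT medium B or C or WT IFNγ A or B. The serine synthesis genes Phgdh and Psat1, the asparagine synthetase Asns, the mitochondrial serine enzyme Shmt2 and the transporter subunits Slc3a2 and Slc7a5 did not pass in either genotype, with changes of -0.08 to 0.44 in WT cells and 0.01 to 0.38 in KO cells. Psat1 passed in WT cells without both IFNγ libraries of letter C (0.63, limma adjusted p = 0.0434).

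ER chaperones and folding enzymes made up 13 of the genes. In WT cells 2 of the 13 rose, 12 had a change above 0 and the median was 0.36; in KO cells 1 rose, 12 were above 0 and the median was 0.42. Creld2, an ER protein induced through ATF6 (chr15:88819646-88826683, plus strand), stood at 7.75, 7.83 and 7.22 in WT medium and at 8.85, 8.39 and 8.05 in WT IFNγ. In KO cells it stood at 7.15, 7.24 and 7.46 in medium and at 8.49, 8.53 and 7.90 with IFNγ. IFNγ libraries were above medium libraries throughout, and C was the lowest IFNγ library in both genotypes. The change was 0.83 (SE 0.25, limma adjusted p = 0.0487) in WT cells and 1.02 (SE 0.25, adjusted p = 0.013) in KO cells. The WT call, at the edge of the threshold, was lost with library totals or upper quartiles as the scale (adjusted p = 0.068 and 0.0643), with no filter, without the trend, with the 2 groups alone (0.066 to 0.108) and in 5 of the 6 fits that left out 1 library. The KO call was lost in 3 of 6 such fits, at 0.91 to 0.96.

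Sdf2l1, a small partner of the BiP chaperone cycle (chr16:17130138-17132383, minus strand), stood at 8.16, 7.73 and 7.34 in WT medium and at 9.26, 8.91 and 8.23 in WT IFNγ. Its KO values were 8.23, 8.14 and 8.44 in medium and 8.49, 8.75 and 8.14 with IFNγ. The WT groups met closely at WT IFNγ C and WT medium A, and the KO groups overlapped. The change was 1.06 (SE 0.26, limma adjusted p = 0.0155) in WT cells and 0.19 (SE 0.26, adjusted p = 0.767) in KO cells. The WT call was lost, at 0.83 to 1.05, without WT IFNγ A or B or WT medium B or C. It was also lost with no mean-variance trend (adjusted p = 0.069). The difference between the changes was -0.87 (SE 0.37, adjusted p = 0.656).

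The abundant chaperones did not pass with the settings used above. Hspa5 (BiP, the main ER chaperone and a standard reporter of the unfolded protein response) stood at 13.89, 13.38 and 13.27 in WT medium and at 13.97, 13.98 and 13.85 in WT IFNγ. Its KO values were 13.63, 13.07 and 13.13 in medium and 14.17, 13.23 and 13.70 with IFNγ. The groups overlapped in both genotypes, and the change was 0.42 in each (SE 0.24, limma adjusted p = 0.347 in WT and 0.364 in KO cells). Calr, a lectin chaperone that also loads class I molecules, stood at 13.71, 13.56 and 13.49 in KO medium and at 14.48, 13.76 and 14.94 in KO IFNγ, with a change of 0.81 (SE 0.25, adjusted p = 0.0545) against 0.50 (SE 0.25, adjusted p = 0.27) in WT cells. Pdia3, the disulfide isomerase that works with Calr, stood at 11.44, 11.08 and 11.24 in KO medium and at 12.16, 11.43 and 12.42 in KO IFNγ, with a change of 0.75 (SE 0.24, adjusted p = 0.0634) against 0.03 (SE 0.24, adjusted p = 0.96) in WT cells. In KO IFNγ, library C was the highest for 7 of the 13 chaperones (53.8%), against 33.9% of all tested genes. KO medium C was also the highest of its group for 7 of the 13, against 35.6% of all tested genes. Library B of KO IFNγ was the lowest of its group for Calr and Pdia3. Without KO IFNγ B, the KO changes of Calr (1.12, adjusted p = 0.00514) and Pdia3 (1.04, adjusted p = 0.0093) passed. B was named for its low values of both genes, so leaving it out had to raise their changes. With all libraries kept, the KO change of Calr also passed with library totals as the scale and with voom weights (limma adjusted p = 0.0343). It passed as well with a filter at log2 of at least 5 (0.043) and with the letter fitted as a block (0.0356), but not in the other such fits. Pdia3 passed only with that block (0.0201). Pdia4, another disulfide isomerase, reached 11.68 in KO IFNγ C, and had a KO change of 0.93 (SE 0.32, adjusted p = 0.0829). The remaining chaperones and co-chaperones, Hsp90b1 (GRP94), Pdia6, Canx, Dnajb9, Dnajc3, Manf and Hyou1, had changes between -0.34 (Canx) and 0.41 (Pdia6) in WT cells and between -0.01 (Dnajb9) and 0.61 (Manf, adjusted p = 0.0963) in KO cells. Manf passed in KO cells without both IFNγ libraries of letter C (0.82, adjusted p = 0.0128). As annotated, Manf overlaps Dcaf1 by 42681 bases on the opposite strand and Rbm15b by 6511 bases on its own strand. Reads in these shared bases cannot be told apart.

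The 4 genes of ER-associated degradation showed no call. Herpud1 organises the export complex, Syvn1 is its ubiquitin ligase, Sel1l is the ligase's partner and Edem1 trims glycans on proteins to be removed. Their changes ran from -0.01 (Edem1) to 0.40 (Syvn1) in WT cells and from -0.49 (Edem1, adjusted p = 0.143) to 0.29 (Sel1l) in KO cells. Edem1 stood at 9.48, 10.16 and 9.83 in KO medium and at 9.30, 9.32 and 9.39 in KO IFNγ, groups that did not overlap.

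**Figure D3:**
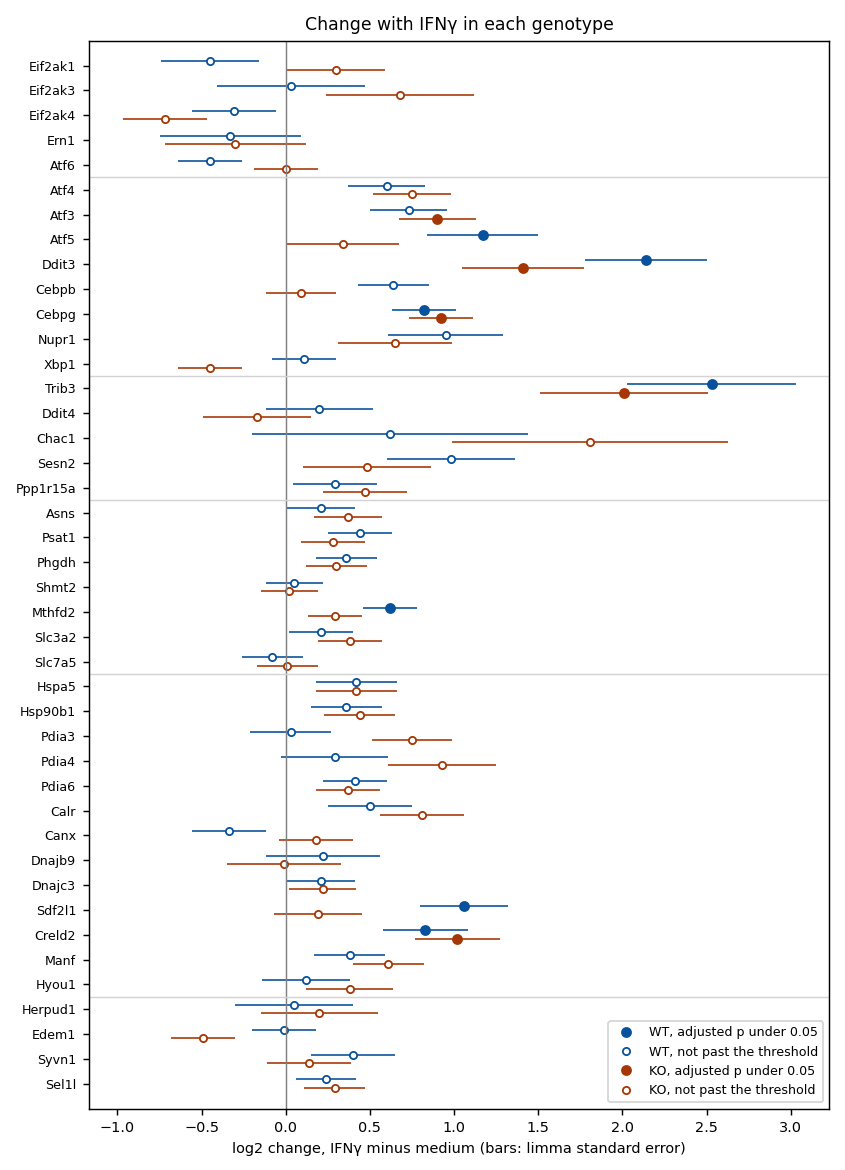
Change with IFNγ of the 42 tested genes as log2 IFNγ minus medium, in WT (blue) and KO (orange) cells, ordered by role from the sensors at the top to ER-associated degradation at the bottom; bars are limma's standard errors and filled points passed the adjusted p of 0.05. Filled points run from 0.62 (Mthfd2) to 2.53 (Trib3) in WT cells and from 0.90 (Atf3) to 2.01 (Trib3) in KO cells.

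Read against the promoter elements shown above, the 6 tested genes with the C/EBP-ATF core had a median change of 0.68 in WT cells and 0.77 in KO cells, all 6 above 0. Of these 6, Trib3 was called in WT cells and Trib3 and Atf3 in KO cells. The 8 genes with the ER stress element had a median of 0.41 in WT cells and 0.40 in KO cells, and Creld2 was called in each. Without Herpud1, which holds both elements, the 5 others with the core had medians of 0.73 and 0.90, and the 24 tested genes with a window and neither element had medians of 0.27 and 0.29. Ddit3, Cebpg, Atf5, Sdf2l1 and Mthfd2, which rose, are among those 24. Neither means not found in the window, and elements farther from the start site were not searched. These are descriptions of few genes, and no test was made between the groups of windows.

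**Figure D4:**
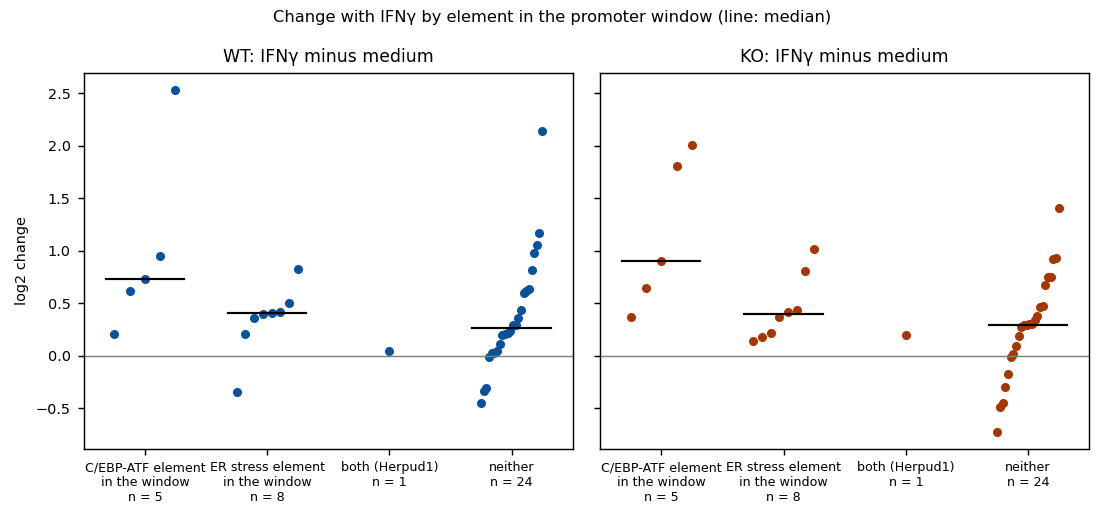
Change with IFNγ (log2, each point 1 gene, line the median) by the element found in the promoter window, in WT and KO cells. The 5 genes with the C/EBP-ATF core alone have medians of 0.73 and 0.90, the 8 with the ER stress element 0.41 and 0.40, and the 24 with neither 0.27 and 0.29, with wide overlap.

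The next comparisons ask whether loss of Atg5 changed these genes. Of the 42 genes, 0 passed limma's test between KO and WT cells in medium, where 0.428% of all genes were called, and 2 (4.76%) had an unadjusted p under 0.05, against 8.26% of all genes. These were Dnajc3, a co-chaperone that inhibits eIF2 kinases (-0.43, SE 0.20, adjusted p = 0.589), and Edem1 (0.40, SE 0.19, adjusted p = 0.597). The median difference was -0.07. With IFNγ, 0 of 42 passed, against 0.492% of all genes, and 1 (2.38%) had an unadjusted p under 0.05, against 12% of all genes. This was Ddit3, lower in KO cells (-0.80, SE 0.36, limma adjusted p = 0.39), whose 3 KO IFNγ libraries all lay below the 3 WT IFNγ libraries. Trib3 likewise did not overlap between the treated genotypes and had a difference of -0.58 (SE 0.50, adjusted p = 0.691). Non-overlap was not counted over all tested genes, so it is no measure of a genotype difference. The median of the 42 was -0.08. The test of the difference between the 2 responses called 0 of the 42 and 0% of all genes, and 2 of the 42 had an unadjusted p under 0.05, against 7.21% of all genes. These were Sdf2l1 and Pdia3 (0.72, SE 0.34, adjusted p = 0.69). Fitted with voom weights, limma also called 0 of the 42 in each of these 3 comparisons. The differences in response of the genes called in 1 genotype only were -0.82 (SE 0.46) for Atf5, -0.33 (SE 0.23) for Mthfd2 and 0.17 (SE 0.33) for Atf3, and that of Ddit3 was -0.72 (SE 0.52). A p that misses the threshold does not show that the genotypes responded alike. The KO and WT comparisons with IFNγ or medium share their libraries with the comparisons above.

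Trib3, Ddit3, Atf5, Nupr1, Chac1, Sesn2, Slc7a5 and Dnajb9 were highest in library C of the untreated cells in both genotypes, which is 8 of 42 (19%) against 12.6% of all tested genes. Nupr1 stood at 6.45, 6.61 and 7.48 in WT medium and at 6.24, 6.44 and 7.66 in KO medium, against 8.08, 7.95 and 7.36 in WT IFNγ and 7.47, 7.16 and 7.67 in KO IFNγ. Medium C lay within or above the IFNγ libraries of its genotype for Nupr1, Chac1, Slc7a5 and Dnajb9 in both genotypes and for Sesn2 and Atf5 in KO cells. For Trib3 and Ddit3 it lay below them in both genotypes. Without both medium libraries of letter C, a setting chosen after seeing the data, IFNγ raised 6 of the 42 genes in WT cells and 8 in KO cells. Over all 10981 genes, this setting called 575 in WT cells and 639 in KO cells in either direction. With all libraries these counts were 730 and 808. Nupr1 then passed in both genotypes (1.27, limma adjusted p = 0.011, and 1.09, adjusted p = 0.0259), as did Sesn2 (1.31, adjusted p = 0.00944, and 1.02, adjusted p = 0.0391). Both were named for a high medium C, so leaving out C had to raise their changes. The WT calls of Mthfd2 (0.55, adjusted p = 0.101), Sdf2l1 (0.86, adjusted p = 0.101) and Creld2 (0.64, adjusted p = 0.206) were lost in the same setting. What set these libraries apart was not tested.

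A list of 97 other genes of these pathways, 91 of them tested, gave 5 higher (5.49%) and 1 lower (1.1%) in WT cells, with a median change of 0.16. These shares are near those of all tested genes, 4.53% and 2.12%. The higher ones were Slc6a9, a glycine transporter (1.33, SE 0.35, limma adjusted p = 0.0246), Eif2ak2, Txnip, the thioredoxin inhibitor (0.98, SE 0.21, adjusted p = 0.00521), Wars, the tryptophanyl-tRNA synthetase known to be induced by IFNγ (0.97, SE 0.24, adjusted p = 0.0175), and Tmbim6, an ER membrane protein that restrains IRE1 (0.92, SE 0.19, adjusted p = 0.00401). The lower one was Mars. In KO cells the list also gave 5 higher and 1 lower, near the 4.67% and 2.69% of all genes, with a median of 0.23. The higher ones were Slc7a11, the cystine transporter (1.33, SE 0.37, limma adjusted p = 0.0329), Eif2ak2, Txnip (0.85), and the BiP partners Dnajc10 (0.78, SE 0.23, adjusted p = 0.0399) and Dnajb11 (0.69, SE 0.20, adjusted p = 0.038). The lower one was Klhl24 (-1.24, SE 0.23, adjusted p = 0.00143). Of the 12 tRNA synthetases tested, many of them ATF4 targets, Wars rose and Mars fell in WT cells and 0 were called in KO cells, where 5 had an unadjusted p under 0.05. Between genotypes and for the difference in response limma called 0 of the 91, with 5, 11 and 5 at an unadjusted p under 0.05 (5.49%, 12.1% and 5.49%), against 8.26%, 12% and 7.21% of all genes.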

How the data were processed

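RNA-seq was done on 12 libraries of BV2 cells in 4 groups of 3. The authors deposited 1 table of log2 values. The tools named, per the submitters' processing notes, are DESeq2 1.10.1, HTSeq 0.6.1, STAR and FastQC 0.11.2, with the build GRCm38 and no roles. Undoing the log2, the added 1 and 1 size factor per library gave whole numbers for 100% of values, to within 0.01 read, and so the depths.

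Genes with log2 of at least 3 in at least 3 libraries were kept, 10981 in all. On these log2 values limma 3.58.1 in R 4.3.3 was fitted with a mean per group, 8 residual degrees of freedom and a mean-variance trend, two-sided, with Benjamini-Hochberg adjustment, after a test on simulated data. Adjusted p-values are limma's, and log2 changes understate those of low genes. Leaving out 1 library leaves 2 in its group. Positions are from GENCODE M21, promoter sequences from RefSeq. Another promoter element searched is not reported here.

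The 43 genes, the roles and the lists were chosen with earlier results of these data known. Genes called in any comparison are given library by library; others shown that way were chosen after their values were seen.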

Additional observations from a re-analysis of the deposited data

How the results depend on the processing

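Of 204 values of the 12 calls under alternative settings, 153 kept direction and threshold, 51 missed the threshold and 0 turned. Trib3 and Ddit3 in WT cells and Cebpg in KO cells passed under every setting run. The cause of the shifts below was not tested, except that leaving out a library lowers the number of samples.

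Leaving out 1 library gave 2 to 9 of the 42 genes higher in WT cells (7 with all libraries, lowest without WT medium B) and 1 to 7 in KO cells (5 with all, lowest without KO medium A). In KO cells the count was 2 without the mean-variance trend, 10 with the replicate block and 8 without both medium libraries of letter C, and 1 gene, Eif2ak4, was lower without both IFNγ libraries of letter C.

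Over all genes, leaving out 1 library gave 424 to 1084 called in WT cells (730 with all), 513 to 703 in KO cells (808), 24 to 39 between genotypes in medium (47), 23 to 83 with IFNγ (54) and 0 to 3 for the difference in response (0). In WT cells 1119 were called without both IFNγ libraries of letter C. Between genotypes in medium the count was 30 with voom, 23 from the 2 groups alone and 18 without both medium libraries of letter C. With IFNγ it was 32 with no filter, 84 with voom, 29 from the 2 groups alone, 89 with the replicate block and 18 without both IFNγ libraries of letter C. For the difference in response it was 3 with library totals, 1 with the replicate block and 3 without both IFNγ libraries of letter C. Scaling moved the median of all genes by less than 0.1.

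Deviations of libraries with the same letter correlated at -0.06353 to 0.2192 (median 0.05391), with 2 of 18 pairs over 0.1. Those with other letters correlated at -0.2087 to 0.1594 (median -0.01346), with 1 of 36 pairs over 0.1. The highest same-letter value was that of WT IFNγ C with KO IFNγ C. Whether the letters mark paired libraries was not tested. The replicate block added Calr, Pdia4, Pdia3, Manf and Atf4 to the KO calls and left 7 in WT cells. With 3 libraries a group and standard errors of 0.16 to 0.82, changes of the size seen in most of the 42 genes are near the limit of what these data can resolve.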
